A study of Homo sapiens with 8 samples.

Results

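The peaks around 8 genes of the serum response factor (SRF) and early growth response (EGR) system were examined in LX-2 cells by ATAC-seq, in which a transposase cuts and tags open chromatin for sequencing. The genes were SRF, its coactivators MRTFA (MKL1), MRTFB (MKL2) and MYOCD, the zinc finger genes EGR1, EGR2 and EGR3, and IER2. They were chosen by name, and every peak in the gene body or within 50 kb on either side was taken from each of the 8 peak lists. A consensus site is a stretch where the peaks of at least 2 libraries overlapped by 1 bp or more. These 8 of 20136 protein-coding genes held 72 of the 75501 consensus sites.

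LX-2 is an immortalised human hepatic stellate cell line with a wild-type genotype in the labels. The cells were grown on fibronectin-coated polyacrylamide hydrogel of about 2 kPa (soft) or about 40 kPa (stiff) and collected on day 2 (D2) or day 4 (D4). Each of the 4 combinations of matrix and day held 2 replicate libraries, so 4 soft libraries were compared with 4 stiff ones. All come from 1 line. The study calls its sequencing replicates biological, while the labels do not say how the cultures were kept apart, so p-values measure the spread between these libraries. The question was whether open chromatin at these genes differed with matrix stiffness or time.

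The lists held from 29789 peaks in D2 soft replicate 1 to 72840 peaks in D4 stiff replicate 2. D2 soft replicate 1 stood apart, with a peak at 38.3% of all consensus sites, against 68.3% to 85.8% in the other 7 libraries. It had a peak at 33 of the 72 sites near these genes, and the others at 55 to 66, so results that rest on it are given without it as well. Of 14 stellate cell markers, 6 had a promoter peak in every library, among them COL1A1, ACTA2, PDGFRB and VIM, 7 had one in some libraries and DES had none. Of 8 hepatocyte markers, 0 had a promoter peak in every library, 4 had one in 1 or 2 libraries, and ALB, APOA1 and HNF4A had none in any. Of other cell types, KRT7 (cholangiocyte, mean percentile 76.6) and CD68 (macrophage, 96.3) had a promoter peak in all 8 libraries and SOX9 in 7, while PTPRC and PECAM1 had none. Over all protein-coding genes the share in every library was 47.6%, so the stellate count does not stand above it.

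SRF is a DNA-binding protein that recognises the CArG box, a short run of A and T between a CC and a GG. It is activated along separate routes. The myocardin-related factors MRTFA and MRTFB leave their complexes with monomeric actin when actin filaments assemble downstream of RhoA, and the ternary complex factors of the ETS family, such as ELK1, are phosphorylated by ERK and bind an ETS core beside the CArG box. MRTF and SRF drive smooth muscle actin and other cytoskeletal genes in myofibroblasts, while SRF with the ternary complex factors switches on immediate early genes such as EGR1, EGR2, EGR3 and IER2 within minutes of a stimulus.

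The promoters of SRF, EGR1 and EGR2 and an intron site of IER2 held CArG boxes, and their sequences are shown because the peaks described below lie on them. All come from GRCh37 (hg19), are written 5′ to 3′ on the strand of the gene, and carry CArG boxes and ETS cores (CCGGAA on either strand) in capitals. The SRF stretch ends at the base before its only annotated start (chr6:43138757-43139006, plus strand), with CArG boxes at -30 to -21 and -10 to -1 and an ETS core at -70 to -65.
SRF promoter: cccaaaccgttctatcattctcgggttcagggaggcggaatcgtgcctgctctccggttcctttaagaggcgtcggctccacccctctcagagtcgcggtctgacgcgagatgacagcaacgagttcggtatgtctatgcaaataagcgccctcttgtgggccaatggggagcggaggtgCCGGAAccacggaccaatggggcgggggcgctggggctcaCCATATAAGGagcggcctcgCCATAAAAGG
EGR1 held an upstream cluster (chr5:137800718-137800867, plus strand) and a pair of boxes near the start (chr5:137800918-137801167, plus strand). The upstream cluster had CArG boxes at -418 to -409, -380 to -371 and -364 to -355 among 3 ETS cores, and the boxes near the start were at -105 to -96 and -83 to -74.
EGR1 upstream cluster: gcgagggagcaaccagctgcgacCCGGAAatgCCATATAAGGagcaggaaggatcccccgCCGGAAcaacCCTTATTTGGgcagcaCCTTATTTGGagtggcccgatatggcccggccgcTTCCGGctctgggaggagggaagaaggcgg
EGR1 promoter: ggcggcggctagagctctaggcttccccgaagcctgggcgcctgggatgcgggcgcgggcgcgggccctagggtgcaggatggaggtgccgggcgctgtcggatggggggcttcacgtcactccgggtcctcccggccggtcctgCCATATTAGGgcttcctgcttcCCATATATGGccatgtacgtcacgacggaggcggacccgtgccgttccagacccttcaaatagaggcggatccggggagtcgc
EGR2 (minus strand) had 1 box at -71 to -62 (chr10:64576127-64576376) and another at -370 to -361 beside an ETS core (chr10:64576427-64576546).
EGR2 promoter: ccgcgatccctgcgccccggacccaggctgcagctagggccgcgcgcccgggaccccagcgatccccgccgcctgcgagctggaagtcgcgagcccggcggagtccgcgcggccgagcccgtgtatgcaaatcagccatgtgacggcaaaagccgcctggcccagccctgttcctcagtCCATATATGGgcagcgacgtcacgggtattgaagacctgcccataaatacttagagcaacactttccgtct
EGR2 upstream box: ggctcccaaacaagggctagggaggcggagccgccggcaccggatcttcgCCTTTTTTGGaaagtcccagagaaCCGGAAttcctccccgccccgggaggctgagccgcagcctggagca
The IER2 box lay inside the intron, 1443 to 1452 bp downstream of the canonical start and upstream of another annotated start of the gene, with an ETS core on each side (chr19:13262593-13262742, plus strand).
IER2 intron site: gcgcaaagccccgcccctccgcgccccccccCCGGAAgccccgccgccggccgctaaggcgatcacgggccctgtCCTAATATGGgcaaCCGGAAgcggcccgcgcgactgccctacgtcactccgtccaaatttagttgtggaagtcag

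A CArG box anywhere in the site was present at 11 of the 72 sites (15.3%), against 4.2% of all 75501 consensus sites and 3.89% of the 16930 sites within 1 kb of a protein-coding start. The 72 sites held 17 boxes, or 267 per Mb, against 56.6 per Mb over all sites. At least 2 boxes were found at 3 of the 72 sites (4.17%) and at 0.131% of all sites, and the 3 were the promoter sites of SRF, EGR1 and EGR2. With 5 boxes, the EGR1 promoter site was the 1 site of 75501 that held 5 or more. In the 250 bp before to 50 bp after the canonical start, 1.20% of 19856 protein-coding promoters held a box, and 7 held 2 or more. These 7 were ACTG2, C19orf85, DUSP5, EGR1, ING4, SRF and ZNF548, a list read from the sequence alone and named after it was seen. A match of letters is a description of the sequence and no measure of SRF binding.

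The peaks of SRF and EGR1 had their highest points close to these boxes in some libraries only. At each site the strongest peak of each library by −log10 p was taken, and any further peak there was not examined. At SRF, all 8 peaks covered both boxes, and the summits lay 29 bp before the start in D2 stiff replicate 2 and D4 stiff replicate 1, 27 bp before it in D2 soft replicate 2, and 52 and 57 bp before it in D2 stiff replicate 1 and D4 soft replicate 1. The remaining 3 summits, in D2 soft replicate 1, D4 soft replicate 2 and D4 stiff replicate 2, lay 162 to 191 bp before the start. Soft and stiff libraries were thus found among both the near and the far summits.

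At EGR1, 4 of 8 summits fell 338 to 359 bp upstream, next to the upstream cluster, and 3 of these 4 were D4 libraries. Another 3, all from D2, fell 1280 to 1337 bp upstream, in an exon of the noncoding gene ENSG00000289267, and the summit of D4 soft replicate 1 fell 138 bp upstream. In D2 soft replicate 1 the strongest peak ended before the boxes, so 7 of 8 strongest peaks covered all 5 of them. Whether another peak of that library covered them was not examined. At EGR2, 7 of 8 strongest peaks covered the box nearest the start and 8 of 8 the upstream box. There, 5 of 8 summits lay within 100 bp of the upstream box. At IER2, 7 of 8 strongest peaks covered the intron box. The exception was D4 soft replicate 1, whose strongest peak had its summit 2643 bp downstream of the start. Whether another peak of that library covered the box was not examined. The nearest summit, in D4 stiff replicate 2, was 0.5 bp from the centre of the box.

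**Figure D1:**
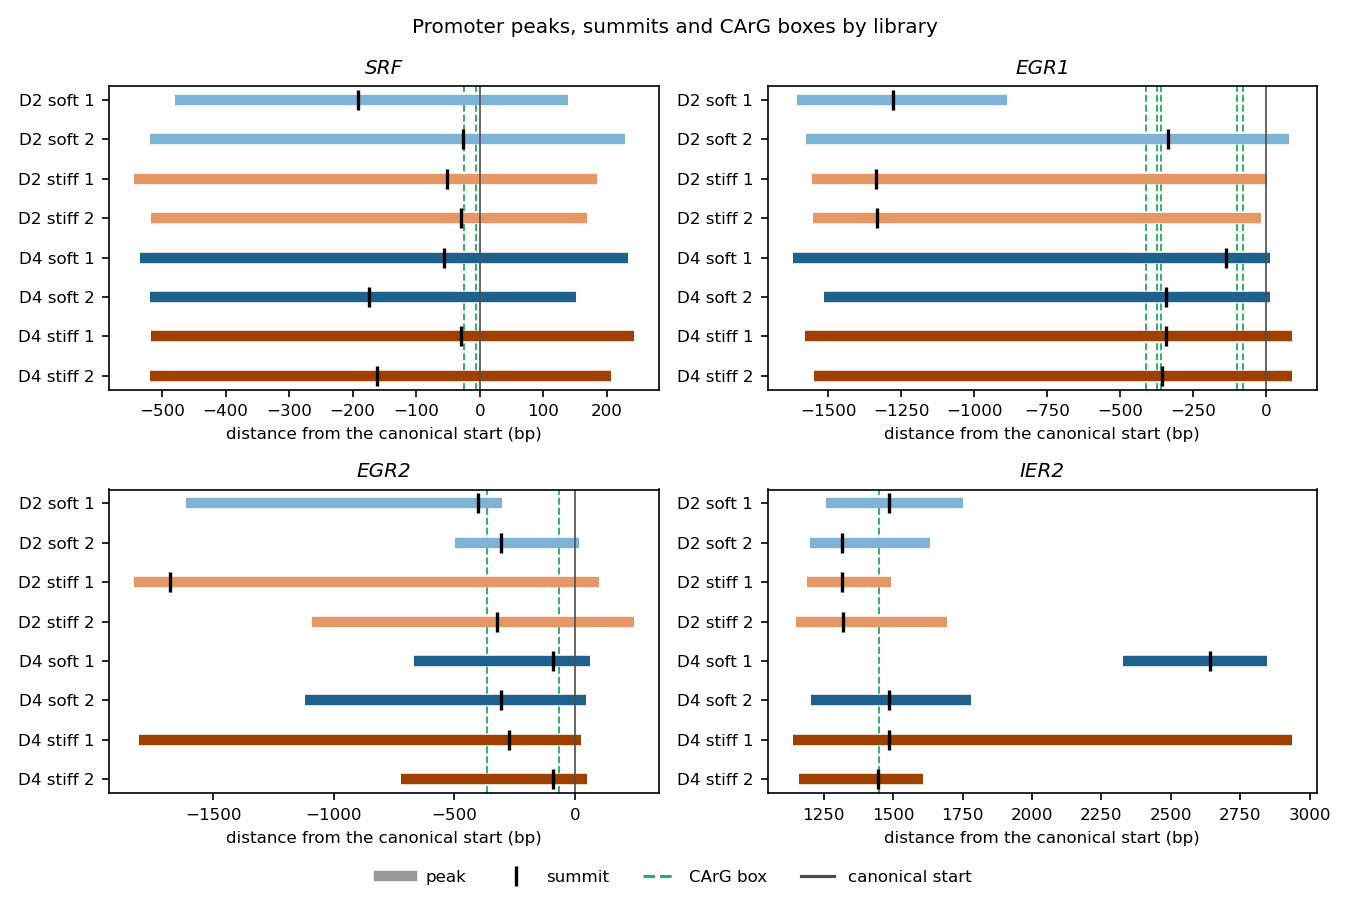
Extent (bars, coloured by group) and summit (black ticks) of the strongest promoter peak of SRF, EGR1 and EGR2 and the strongest intron peak of IER2. Each of the 8 libraries is shown against the distance from the canonical start in bp. Dashed lines mark CArG boxes and the solid line the start. EGR1 summits fell at 3 places, 1280 to 1337, 338 to 359 and 138 bp upstream. The strongest IER2 peak of D4 soft replicate 1 stood apart from the other 7.

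The 72 sites were spread unevenly over the genes. MRTFA, whose gene spans 226 kb, held 14, MYOCD 13, MRTFB and IER2 9 each, SRF and EGR3 8 each, EGR1 6 and EGR2 5. Per 100 kb of window, IER2 had a mean of 7.89 peaks per library and EGR3 7.21, at the 95.6th and 93.1st percentile of all protein-coding genes. SRF had 5.56, MYOCD 5.17 and EGR1 4.94. The long MRTFA and MRTFB windows had 3.45 and 2.45, around the median gene with 3.28.

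Of the 72 sites, 11 lay within 1 kb of a start of the gene itself, 17 within 1 kb of a start of another gene and 44 were distal. A peak was present in every library at 30 of them (41.7%), while 32.1% of all consensus sites had one in every library. Of the 13 sites found in 7 libraries, 11 were missing in D2 soft replicate 1 alone. Without that library, 41 of 72 sites (56.9%) were in every remaining list, beside 47.3% of all sites.

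**Figure D2:**
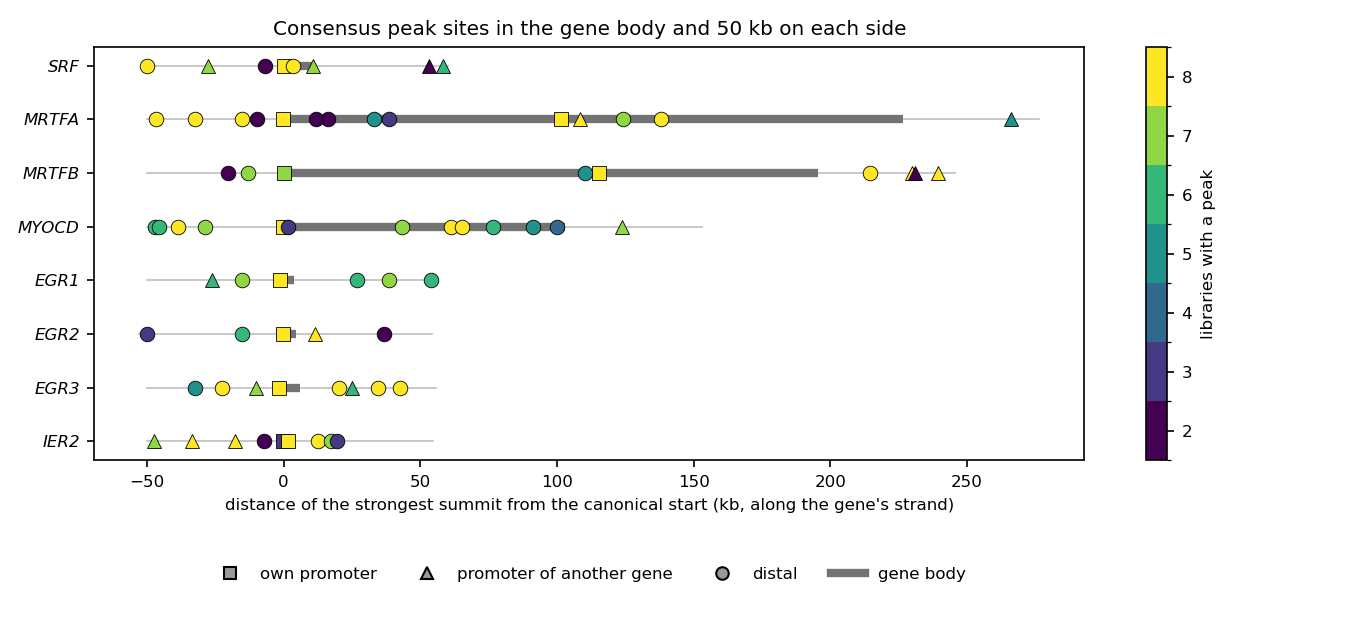
Each consensus site near the 8 genes at the distance of its strongest summit from the canonical start (kb along the strand of the gene), with squares for promoters of the gene itself, triangles for promoters of other genes and circles for distal sites, and colour for the number of libraries with a peak. Sites in 8 of 8 libraries lay both at the promoters and up to 239 kb from them, and no EGR1 site but the promoter was in all 8.

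The promoters differed widely in strength. The rank of a peak by −log10 p within its own list was written as a percentile, with 100 for the strongest peak. MRTFA had the highest promoter percentile, 94.7 ± 1.91 (SD, n = 8 libraries), followed by EGR1 with 92.9 ± 3.99 and SRF with 91.8 ± 5.61. EGR2 reached 78.5 ± 11.6. IER2 with 50.9 ± 15.8, MYOCD with 49.0 ± 11.9 and MRTFB with 46.0 ± 16.4 formed a lower set. The IER2 value is that of the intron site shown above, which lies within 1 kb of a downstream start of the gene, and not of its canonical start. The median over the 9580 protein-coding genes with a promoter peak in every library (47.6% of 20136) was 78.3, so MRTFA, EGR1 and SRF lay above that median, EGR2 at it and IER2, MYOCD and MRTFB below it.

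Most neighbours in this order overlapped. MRTFA was above EGR1 in 6 of 8 libraries by 1.78 ± 4.27 points, EGR1 above SRF in 5 of 8 by 1.06 ± 4.11, and SRF above EGR2 in 6 of 8 by 13.3 ± 15.0. EGR2 was above IER2 in 8 of 8 libraries, by 27.6 ± 14.0 points. IER2, MYOCD and MRTFB could not be ordered, since each was above the next in 4 of 8 libraries.

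SRF, the factor itself, had promoter percentiles of 97.0 and 93.5 on soft and 94.9 and 89.3 on stiff at D2, then 81.5 and 86.8 on soft and 98.2 and 93.4 on stiff at D4. The D4 soft pair was lowest, and the soft and stiff ranges overlapped. MRTFA, the actin-sensing coactivator, had 94.2 and 96.7 on soft and 98.1 and 92.7 on stiff at D2, then 92.6 and 94.0 on soft and 94.5 and 94.4 on stiff at D4. Its 8 values spanned 92.6 to 98.1, the narrowest range of the 7 genes with a promoter peak in every library.

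MRTFB, the second actin-sensing coactivator, had its stronger start inside the annotated gene. The site at its canonical start was found in 7 libraries, all but D2 soft replicate 1, at a mean percentile of 15.4. The site 115 kb downstream, at another start, was in all 8, with 57.9 and 31.2 on soft and 17.3 and 42.5 on stiff at D2, then 50.4 and 53.1 on soft and 70.7 and 45.1 on stiff at D4. Both the lowest and the highest value were from stiff libraries. MRTFA also had a second promoter site, 102 kb downstream of its canonical start, with a mean percentile of 38.2 ± 18.0 in 8 libraries.

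MYOCD, the myocardin gene best known from heart and smooth muscle, had promoter percentiles of 48.7 and 36.0 on soft and 56.6 and 55.7 on stiff at D2, then 43.1 and 31.0 on soft and 67.4 and 53.3 on stiff at D4. All 4 stiff libraries were above all 4 soft ones (58.2 ± 6.23 against 39.7 ± 7.81, n = 4 each, two-sided exact permutation p = 0.0286, the smallest that 70 arrangements allow, 0.484 after Benjamini-Hochberg adjustment over 9580 genes). The same held for 5.73% of the 9580 promoters, and the median promoter was 5.35 points higher on stiff. When the percentile was taken among the 9580 shared promoters instead of the whole list, the MYOCD difference was 2.2 points with p = 0.914 in the exact permutation test, and the soft and stiff values overlapped. The test was chosen after the percentiles had been seen. The soft lists held 29789 to 63272 peaks and the stiff lists 59277 to 72840, and the part of list length in the difference was not tested.

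EGR1, the most studied of the EGR genes, had promoter percentiles of 93.3 and 94.7 on soft and 91.7 and 97.7 on stiff at D2, then 86.8 and 87.6 on soft and 97.0 and 94.2 on stiff at D4. As at SRF, the D4 soft pair was lowest of the 4, and the soft and stiff ranges overlapped. EGR2, which also serves in myelination, had 53.6 and 71.2 on soft and 81.6 and 77.9 on stiff at D2, then 84.6 and 89.6 on soft and 82.1 and 87.8 on stiff at D4. The D2 soft pair was the lowest of the 4, with D2 soft replicate 1 far below the others. IER2, a small nuclear immediate early protein, had 23.4 and 63.9 on soft and 47.4 and 65.1 on stiff at D2, then 35.6 and 50.7 on soft and 51.1 and 70.3 on stiff at D4. The 35.6 in D4 soft replicate 1 came from its peak with a summit 2643 bp downstream of the canonical start, away from the other summits. The IER2 replicates lay far apart in every group, and the soft and stiff ranges overlapped.

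EGR3 had a peak within 1 kb of a start in 3 libraries, D2 soft replicate 2 at percentile 32.4, D2 stiff replicate 1 at 28.9 and D4 stiff replicate 1 at 74.3. All 8 libraries had one within 2.5 kb of a start, at a site centred upstream, with summits 1028 to 2197 bp before the canonical start. That site held a CArG box at -2039 to -2030, covered by 8 of 8 peaks, and the EGR3 promoter window held another at -71 to -62.

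No promoter percentile passed the exact permutation test after adjustment, with 0 of 9580 under 0.05 and a lowest adjusted p of 0.484. The smallest p of this exact permutation test is 0.0286, with 70 arrangements. After adjustment over 9580 genes a promoter could pass only together with very many others, so this says little about any 1 gene. For the genes other than MYOCD, the stiff minus soft differences were 4.27 for SRF, 0.527 for MRTFA, -4.23 for MRTFB, 4.54 for EGR1, 7.58 for EGR2 and 15.1 for IER2, with two-sided exact permutation p between 0.143 and 0.743. Among the 9580 shared promoters these became 7.33 for SRF, -2.94 for MRTFA, -10.0 for MRTFB, 7.48 for EGR1, -2.48 for EGR2 and 2.31 for IER2, so the sign for MRTFA and EGR2 depended on the scale.

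**Figure D3:**
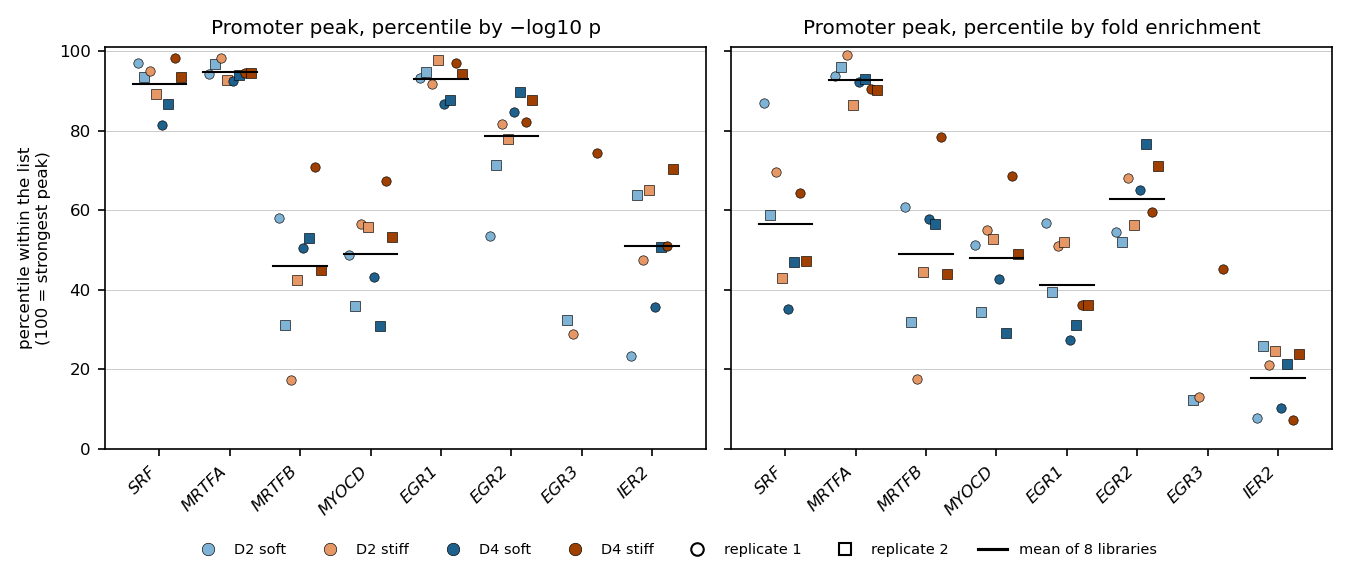
Percentile of the promoter peak within its list by −log10 p (left) and by fold enrichment (right) for each gene in each library, with colour for the group, shape for the replicate and a line at the mean of 8 libraries; EGR3 is shown in the 3 libraries with a peak within 1 kb. EGR1, SRF and IER2 dropped from means of 92.9, 91.8 and 50.9 on the left to 41.3, 56.5 and 17.8 on the right.

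The measure of strength mattered most for EGR1, SRF and IER2. Fold enrichment is the pileup at the summit over the local background of the library, and −log10 p also grows with the number of reads in that background. By fold enrichment, the EGR1 promoter had a mean percentile of 41.3, 51.6 points below its percentile by −log10 p. The gap was 35.3 points for SRF, 33.2 for IER2 and 15.7 for EGR2, and between -2.92 and 2.02 for MRTFA, MRTFB and MYOCD. Over all 9580 promoters the median gap was 3.51 points and 95% of promoters had a gap up to 25.0, so EGR1 stood at the 99.8th, SRF at the 98.5th and IER2 at the 98.0th percentile of gaps. The mean fold enrichment was 12.8 at the MRTFA promoter and 7.88 at the SRF promoter. EGR1 peaks were also wide, with a median of 1598 bp against 840 bp for the median promoter, while SRF peaks, at 729 bp, and IER2 peaks, at 507 bp, were not.

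Around SRF, the strongest distal site lay 50.1 kb upstream (chr6:43088441-43089538, hg19) in an intron of PTK7, a receptor-like pseudokinase gene. It had percentiles of 59.98 and 95.8 on soft and 87.4 and 98.7 on stiff at D2, then 97.1 and 94.1 on soft and 88.6 and 90.6 on stiff at D4, with D2 soft replicate 1 the lowest. A second site was in the SRF intron, 3.39 kb downstream of the start (chr6:43142045-43142623). It had 16.3 and 43.3 on soft and 84.2 and 89.8 on stiff at D2, then 90.7 and 66.6 on soft and 82.5 and 90.5 on stiff at D4. Only at D2 were both soft libraries below both stiff ones, and the lower D4 soft library was still above both D2 soft libraries.

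Around MRTFA, sites 15.3 kb upstream between genes and 138 kb downstream in the MRTFA intron had mean percentiles of 93.6 ± 4.80 and 90.8 ± 3.42 (n = 8). The upstream site ranged from 83.9 to 99.0 and the intron site from 85.8 to 94.4, and soft and stiff values overlapped at both. The MRTFA promoter itself had 94.7 ± 1.91, and its values, from 92.6 to 98.1, overlapped those of the intron site. MRTFB had 1 distal site in every library, 214 kb downstream of the canonical start and beyond the end of the gene (chr16:14378986-14380287), at 89.1 ± 4.80, against 46.0 at its own best promoter. Sites at MIR193BHG and MIR365A, noncoding genes further on, had mean percentiles of 41.8 and 56.4 in 8 libraries.

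Around MYOCD, the highest distal site in all libraries was 38.5 kb upstream (chr17:12530532-12531657), in the noncoding gene LINC00670, with 94.6 and 74.5 on soft and 84.8 and 88.1 on stiff at D2, then 77.8 and 64.0 on soft and 77.2 and 85.9 on stiff at D4. The order of soft and stiff libraries seen at the MYOCD promoter was absent here, since D2 soft replicate 1 was highest. A site in the MYOCD intron, 65.1 kb downstream, had a mean of 50.3 ± 15.7 (n = 8). In all, 11 of the 13 MYOCD sites were distal.

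EGR1 had 0 distal sites in every library, and its 4 distal sites were in 6 or 7. The strongest of them, named because none met the rule, lay 15.3 kb upstream (chr5:137785044-137786119) and was missing in D2 soft replicate 1, with 41.9 in D2 soft replicate 2, 69.5 and 87.6 on stiff at D2, then 65.3 and 60.8 on soft and 63.7 and 87.4 on stiff at D4. The site 26.7 kb downstream was in 6 libraries, with a mean of 66.2. EGR2 likewise had 0 distal sites in every library, its other constant site being the promoter of ADO, a thiol dioxygenase gene, at a mean of 58.7.

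EGR3 showed the reverse arrangement, a weak promoter among strong distal sites. The site 22.4 kb upstream, in introns of PEBP4 and a noncoding gene, had percentiles of 94.8 and 98.9 on soft and 98.9 and 98.3 on stiff at D2, then 97.0 and 98.3 on soft and 98.0 and 97.2 on stiff at D4. It was the highest mean of any of the 72 sites, 97.7 ± 1.34. The site 20.1 kb downstream, between genes, had 92.7 ± 2.4, with a lowest value of 86.9 in D2 stiff replicate 1. For IER2, 1 distal site was in every library, 12.6 kb downstream, with 51.9 and 73.2 on soft and 66.3 and 56.9 on stiff at D2, then 48.6 and 60.3 on soft and 74.6 and 84.6 on stiff at D4. The D4 stiff pair was highest there, with D2 soft replicate 2 close behind. At the canonical promoter of IER2, shared with STX10, a peak was present in 3 libraries, all stiff, at percentiles of 19.0 in D2 stiff replicate 1 and 23.7 and 22.5 in D4 stiff.

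**Figure D4:**
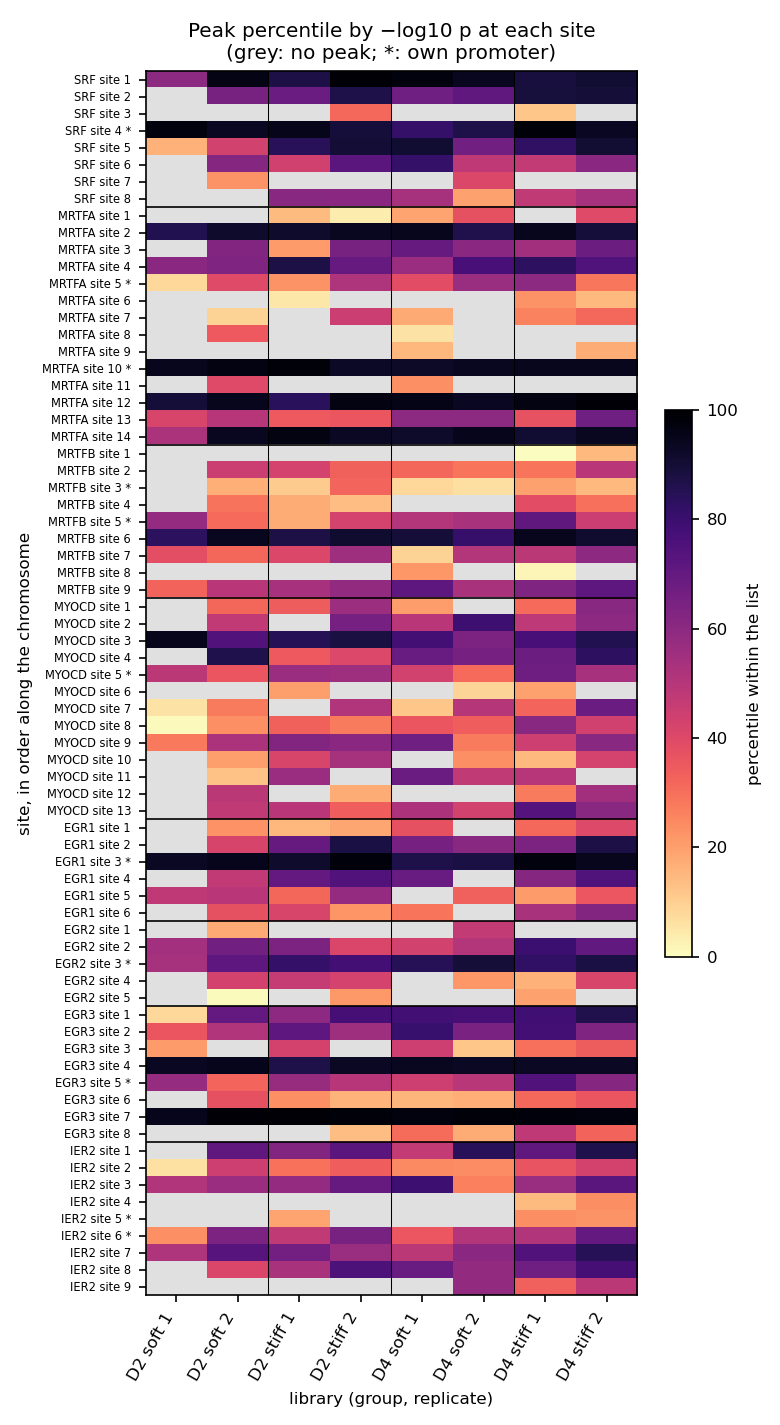
Percentile by −log10 p of the peak at each of the 72 sites (rows, in order along the chromosome, promoters of the gene itself starred) in each of the 8 libraries (columns); grey marks no peak. The D2 soft replicate 1 column has 33 coloured cells against 55 to 66 in the others, and the promoters of SRF and EGR1 and the canonical promoter of MRTFA are dark in every column.

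Presence by group showed few sites on one matrix alone. At D2, 2 of the 72 sites (2.78%) had a peak in both stiff libraries and neither soft library, against 7.45% of all consensus sites. They were the DNPH1 promoter 58.2 kb from SRF, with 60.7 and 60.4 in D2 stiff, and the SGSM3 promoter in the MRTFA window, with 14.1 and 3.81. Both had peaks in both D4 soft libraries. The reverse pattern, both D2 soft and neither D2 stiff, had 0 sites against 0.391%.

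At D4, 6 of 72 sites (8.33%) had a peak in both stiff and neither soft library, against 6.72% of all sites. They were sites in introns of MRTFA, at 38.5 kb, and MRTFB, at 110 kb, 1 between genes 20.4 kb upstream of MRTFB, 1 in an exon of MYOCD at 99.8 kb, and at IER2 the canonical promoter and a site 7.01 kb upstream. Their mean percentiles were low, from 7.45 to 37.2. The MRTFB intron site and the MYOCD exon site also had a peak in D2 soft replicate 2. The reverse pattern at D4 had 0 sites against 1.31%, and peaks in all 4 stiff and no soft library had 0 against 0.85%. In any number of libraries over both days, a count made after the peaks had been seen, 5 of the 72 sites (6.94%) had peaks in stiff libraries alone, against 9.42% of all sites, and 4 (5.56%) in soft libraries alone, against 1.52%. The 4 lay 53.3 kb from SRF at CUL9, in an MRTFA intron 16.0 kb downstream of its canonical start, 9.74 kb upstream of that start and 36.7 kb from EGR2. Each was in 2 libraries that included D2 soft replicate 2. When every list was cut to the length of the shortest, 1 of 44 sites had the D4 stiff pattern and 1 of 44 the D4 soft pattern, beside 3.0% and 2.81% of all sites.

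Between days on soft, 3 sites (4.17%) had a peak in both D4 and neither D2 library, against 5.79% of all sites. They were the DNPH1 and SGSM3 promoters and a site 32.5 kb upstream of EGR3. Between days on stiff, another 3 (4.17%) did, against 5.35%, and these were the sites 20.4 kb upstream of MRTFB and 7.01 kb upstream and 19.5 kb downstream of IER2. These shares were at or below the background, and are no result about these genes.

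For the 30 sites found in all libraries, the fold enrichments were ranked within each library, turned into normal scores and compared with limma over all 24246 such sites, with Benjamini-Hochberg adjustment. None of the 30 passed. The lowest adjusted p from limma was 0.514 for stiff against soft at D2, 0.923 at D4, 0.714 over both days and 0.662 for D4 against D2. Of all sites, 0.00412% were called at D2, 0.00825% at D4, 0.00825% over both days and 0% between days. Unadjusted p was under 0.05 at 1, 0, 0 and 3 of the 30 sites, and at 7.65%, 5.35%, 7.72% and 6.91% of all. Leaving out D2 soft replicate 2 makes the library that stood apart the only D2 soft one. The p-values of that fit are therefore not read as a result about these sites. The median 95% interval, before adjustment, reached 1.02 score units to either side at each day, so smaller differences were not detectable. After adjustment over all 24246 sites, larger differences could be missed as well.

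The 1 site with a low unadjusted p between matrices was the SRF intron site. At D2 its rank score was 1.39 higher on stiff (95% interval 0.40 to 2.38, adjusted p = 0.514 and unadjusted 0.00772 in limma), and at D4 it was -0.26 (interval -1.25 to 0.73). The test of the difference between days gave an adjusted p of 0.920 in limma. Without D2 soft replicate 1 the D2 difference was 1.42, with an adjusted p of 0.794.

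Between days, the EGR1 promoter differed by -0.85 in score, D4 minus D2 (interval -1.56 to -0.14, adjusted p = 0.664 and unadjusted 0.0203 in limma), and the SRF promoter by -0.81 (interval -1.58 to -0.04, adjusted p = 0.698 and unadjusted 0.0395). The EGR1 summits lay 1280 to 1337 bp upstream in D2 soft replicate 1 and both D2 stiff libraries, and 138 to 359 bp upstream in the others. Its scores on the 2 days need not come from the same place. A site 42.4 kb downstream of EGR3, in an intron of BIN3, was 1.02 higher at D4 (adjusted p = 0.662 and unadjusted 0.0112 in limma). Without D2 soft replicate 1 these became -0.59, -0.44 and 0.57, and that library had the highest SRF promoter percentile by fold enrichment, 86.9, and the lowest EGR3 distal percentile by −log10 p, 8.15. In the same fit of 7 libraries, 41 sites near the 8 genes were tested and limma called 0, with an unadjusted p under 0.05 at 3 on D2, 2 on D4, 3 over both days and 0 between days. Of all 35578 sites in that fit, 2047, 2680, 2611 and 2414 had one, and 3 were called at D4.

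**Figure D5:**
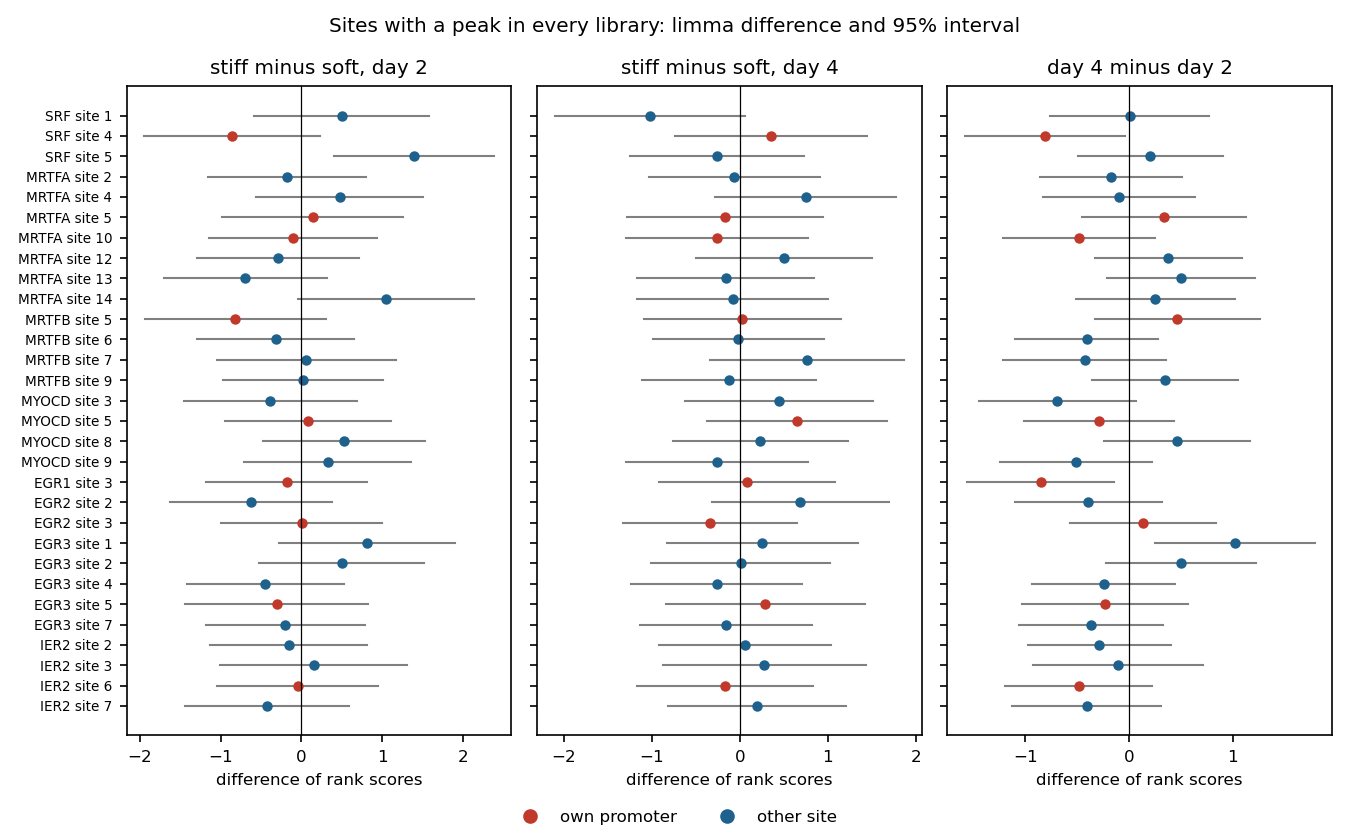
Difference of normal scores of within-library fold enrichment ranks (points) with 95% intervals (lines) at the 30 tested sites, for stiff minus soft on day 2 and on day 4 and for day 4 minus day 2; red marks promoters of the gene itself. Most intervals cross 0, the SRF intron site at D2 and the SRF promoter, EGR1 promoter and 1 EGR3 distal site between days being the exceptions before adjustment.

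The number of peaks per gene window leaned to stiff without passing the exact permutation test. The smallest p of that exact permutation test is 0.0286. After adjustment over 19427 genes a gene could therefore pass only together with very many others. EGR1 had 3 and 6 peaks in D2 soft, 5 and 3 in D4 soft and 6 in each of the 4 stiff libraries (6 ± 0 against 4.25 ± 1.5, n = 4 each, two-sided exact permutation p = 0.143). Without D2 soft replicate 2 the EGR1 difference was 2.33 peaks with no overlap, as for 9.31% of 19412 genes. That leaves the library that stood apart as the only D2 soft one, so it is not read as a result. Without D2 soft replicate 1 the EGR1 difference was 1.33 with overlap. Each of the 6 EGR1 sites had a peak in all 4 stiff libraries. Stiff lists had a peak at 72.6% to 85.8% of all consensus sites, against 38.3% to 76.0% for soft lists. IER2 had 4 and 9 on soft and 8 and 9 on stiff at D2, then 8 and 8 on soft and 9 and 11 on stiff at D4 (exact permutation p = 0.286). MYOCD and IER2 differed by 2 peaks, EGR1 by 1.75, MRTFA and MRTFB by 1.5, SRF and EGR3 by 0.75 and EGR2 by 0.25. Without D2 soft replicate 1 the differences were 0.5 for MYOCD, 0.917 for IER2, 0.333 for MRTFA and EGR3, 0.667 for MRTFB, -0.167 for SRF and -0.417 for EGR2, and the median over all genes was 0.5.

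A difference toward stiff was common to most genes, since 86.3% of 19427 protein-coding genes had one, with a median of 1 peak. In 5.29% of genes all 4 stiff counts were above all 4 soft, and this held for 0 of the 8 genes. With lists cut to the length of the shortest, the differences were -1 for MRTFA, -0.25 for MRTFB, 0 for EGR3 and 0.25 to 0.75 for the other 5.

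Motifs within 100 bp of the strongest summit were counted at all sites, on both strands. The AP-1 site TGACTCA was at 21 of the 72 sites (29.2%) and at 30.2% of all sites, with 8 of the 21 in the MRTFA window. The TEAD site GGAATG was at 12 (16.7%) against 19.1%, and the ETS core CCGGAA at 9 (12.5%) against 6.69%. Among all sites with a peak in every library the share with an ETS core was 11.2%, close to that of the 72. The EGR box GCGTGGGCG and the cAMP response element TGACGTCA were at 0 of 72, against 0.201% and 0.608%, and 0 says only that these letters were not in the windows. The CArG box was at 4 (5.56%) against 1.15%, at the SRF and EGR2 promoters, the IER2 intron site and the REEP2 promoter 26.2 kb upstream of EGR1.

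The promoters whose rank scores varied most like those of SRF over the 8 libraries were IGDCC4 (Pearson r = 0.967), PIM1 (r = 0.967), a serine/threonine kinase gene, and ARHGAP12 (r = 0.951), among 9579 genes. For EGR1 they were RABEP1 (r = 0.949) and the shared promoter of KIF15 and KIAA1143 (r = 0.933). SRF and EGR1 had r = 0.593 with each other. The points are the same 8 libraries for every gene and share their depth, so these values are a description.

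Of 56 other genes of the pathway, 37 had a promoter peak in every library, 17 in some and 2, ABRA and EGR4, in none. The share in every library over all protein-coding genes was 47.6%. In limma, 38 of the 56 had a tested promoter site, a consensus site in every library that held a promoter peak in some library. At IER3 and DUSP1, the D2 soft replicate 1 peak of that site lay outside the promoter interval. Limma called 0 of the 38, with an unadjusted p under 0.05 at 4 on D2, 0 on D4, 5 over both days and 3 between days. Over all 24246 sites, counted per site and not per gene, the shares were 7.65%, 5.35%, 7.72% and 6.91%. The median score difference, stiff minus soft over both days, was -0.18 for these 38 and -0.02 over all 24246 sites. Where a gene had several tested sites, its difference is that of the first along the chromosome. This need not be the site with the lowest p, so the -0.18 is a rough description.

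Of the ternary complex factors, ELK1 stood at a mean percentile of 98.2 and ELK4 at 77.9 in 8 libraries, and ELK3 had a peak in 4, 1 soft and 3 stiff, at 21.3. Of 16 actin and RhoA regulators of MRTF, 11 were open in every library, led by the formin DIAPH3 at 97.3 and the GTPase RHOC at 96.6. RHOB, ROCK2 and ACTG1 lacked a peak in D2 soft replicate 1 alone, and PFN1, the profilin gene, lacked one in D2 stiff replicate 2 and had the lowest mean of the list, 25.6.

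Of 15 cytoskeletal targets of MRTF and SRF, 10 were open in every library. MYH9, encoding nonmuscle myosin, was highest at 95.2 and ACTN1, encoding an actinin, next at 92.4. The lowest were CNN2 at 27.4, absent in 1 stiff library, and the tropomyosin gene TPM2 at 28.7. CCN2 and FLNA lacked a peak in D2 soft replicate 1 alone, CNN1 had one in 4 stiff and 2 soft libraries and CCN1 in 3 stiff and 2 soft.

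Of 20 immediate early genes, 12 were open in every library, with JUN at 97.0 and ATF3 at 92.3 the highest. IER3, DUSP1, DUSP5, KLF2 and KLF6 lacked a peak in D2 soft replicate 1 alone. JUNB had one in 4 stiff and 1 soft library and ZFP36 in 3 stiff and 2 soft, and ZFP36 was lowest at 11.2, followed by DUSP5 at 36.5. The EGR corepressor genes NAB1 and NAB2 were open in 8 libraries, at 36.6 and 65.8. These counts are a description, and limma called 0 of the tested promoter sites of the lists.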

How the data were processed

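ATAC-seq libraries of LX-2 cells were prepared with a transposase kit and sequenced as read pairs. Per the labels and the study's methods, the authors trimmed reads with Trim Galore, aligned them to hg19 with Bowtie2 2.4.1 and called peaks with MACS2 at a q threshold of 0.05 in each library, with no pooling. The submitters' processing notes also name bedtools 2.24.0 and Picard. The MACS2 version and options, any shift for the transposase, and read depth are not given in the sources used here, so no counting interval could be made. The deposited columns used were fold enrichment at the summit (a ratio to the local background of the library) and −log10 p. The deposited −log10 q column served for the stricter q threshold, and the deposited score column was not used in any result.

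Peaks were merged at 1 bp over the 8 lists, sites in at least 2 libraries were kept, and genes came from GENCODE 44 on GRCh37. A promoter peak lay within 1 kb of an annotated start. Values were ranked within each list, since the files hold no scale shared between libraries. Normal scores (scipy 1.17.1) of fold enrichment ranks at sites in every library were fitted with limma 3.58.1 (R 4.3.3) on 4 group means. Other tests were two-sided exact permutations of 4 against 4 libraries, or of 4 against 3 with 1 library left out. The limma, window and motif steps were tested on simulated data. Alternatives changed the measure, list length, q, window, promoter distance, block and libraries. The members and lists were chosen with earlier results of these data known. Named were all 8 genes with every promoter site, up to 2 distal sites in all libraries with the highest mean percentile, sites with peaks in both libraries of 1 matrix and neither of the other on a day, the 3 promoters most like SRF and EGR1, and pathway genes missing a peak or among the 2 highest and 2 lowest.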

Additional observations from a re-analysis of the deposited data

How the results depend on the processing

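Of 351 values recomputed under an alternative, 279 stayed within the range set for the same result, 65 moved and 7 changed sign. With the replicate number as a block, limma called 1 site on day 2, 2 on day 4, 2 over both days and 0 between days, as without it. Same-numbered libraries did not deviate together (correlations from -0.0414 to 0.0837), so the numbers in the labels do not pair them. The number inside the peak names differs from the label in 5 of 8 lists and was not checked for pairing, and blocking by it, chosen after seeing the data, gave 0, 1 and 0 sites on day 2, on day 4 and over both days. On day 2, 0 sites were called with ranks of −log10 p, with libraries of one day, with q up to 0.01 and with lists of equal length. On day 4 these gave 0 with ranks of −log10 p and 1 each with one day and with equal lists, which also gave 1 over both days. Leaving out 1 library gave 0 to 296 sites on day 2, 0 to 6 on day 4, 0 to 90 over both days and 0 to 56 between days, the highest each time without D2 soft replicate 2. No site near the 8 genes was called by limma under any of these.

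The 72 sites became 26 in gene bodies alone, 111 with 100 kb on each side and 44 with equal lists, and the 30 in every library became 13 and 16 in gene bodies and equal lists. Sites in both stiff and no soft library on day 2 were 0 in gene bodies, 6 with 100 kb and 2 to 20 with 1 library left out, the highest without D2 soft replicate 2, where it was 29.4% of the sites against 29.7% of all. On day 4 they were 1 with equal lists and 4 to 11 with 1 library left out. The reverse was 1 on each day with equal lists, and 0 to 4 on day 2 and 0 to 2 on day 4 with 1 library left out. Sites in all stiff and no soft libraries were then 0 to 2. The cause was not tested.

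With equal lists, stiff minus soft window counts were -1 for MRTFA and -0.25 for MRTFB. With 1 library left out they ran from -0.167 to 1.5 for SRF and from -0.417 to 0.917 for EGR2. Of the 8 genes, EGR1 alone then had soft and stiff counts without overlap. This was without D2 soft replicate 2, where the library that stood apart is the only D2 soft one. With equal lists 4 genes had a promoter peak in every library in place of 7, since MRTFB, MYOCD and IER2 lost theirs in some. The median promoter percentile over 7 genes was 48.9 by fold enrichment. Among shared promoters, 162 had all stiff above all soft values, and the difference was -2.94 for MRTFA and -2.48 for EGR2. Peak lists hold no reads, so a missing peak is no measure of closed chromatin.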
